A study of Mus musculus with 6 samples.

Results

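The genes described here encode the proteins of the cytosolic ribosome. They were chosen from the table of mouse genes by symbol: Rpl or Rps followed by a number, Rplp0 to Rplp2, and Rpsa. The rule took 77 of 51912 genes, 46 of the large subunit and 31 of the small subunit, and left out the S6 kinases, the genes of like name ending in l, and the annotated pseudogenes. Fau and Rack1 are among the cytosolic ribosomal protein genes whose symbols fall outside the rule, and they are given separately below.

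RNA sequencing was done on EL4, a T-cell lymphoma line of the mouse, whose genotype the labels give as WT. The RGFP966 group was 3 libraries from cells given 10 µM of RGFP966, which inhibits the histone deacetylase HDAC3, for 24 h, and the vehicle group was 3 libraries from cells given vehicle over the same time. RGFP966 libraries held 12935443 to 14768540 counts and vehicle libraries 15380331 to 16451017. The counts below come out alike when every library is thinned to the lowest total (44 members lower, against 10.7% of all genes tested). Both groups come from this 1 line. Whether each library had a culture of its own is not stated in the labels, so the p-values measure the spread between these libraries, which may be technical. The extraction text in the labels speaks of retinas. All 10 T cell markers examined were detected, with a summed level of 2496 to 2547 counts per 1000000 (CPM) in RGFP966 and 2304 to 2329 CPM in vehicle libraries. The 8 retina markers summed to 4.33 to 4.64 CPM in RGFP966 and 4.32 to 4.69 CPM in vehicle libraries, with Gnat1 and Crx at 0 throughout. The 6 fibroblast markers summed to 54.6 to 58.0 CPM in RGFP966 and 44.1 to 45.1 CPM in vehicle libraries, with 5 of the 6 under 1 CPM and Col3a1 at 0. Their part in the results was not tested.

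A cytosolic ribosome joins a small subunit, which holds the mRNA and checks each codon against its tRNA, to a large subunit, which forms the peptide bond and passes the growing chain out through a tunnel. Cells need the proteins of both subunits in matched amounts, and fast-growing cells such as lymphoma lines spend much of their mRNA on them. Most of these mRNAs begin with a C followed by a run of pyrimidines, the terminal oligopyrimidine (TOP) motif, through which the kinase complex mTORC1 and the RNA-binding protein LARP1 control their translation. Counts of total RNA say nothing of translation itself, and in such bulk samples fewer cells with a transcript and less of it per cell cannot be told apart.

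The start sites of 6 members are shown first, because this run is the sequence feature that marks the family and the 6 cover a range of differences. They were chosen after the values were seen. Each is the RefSeq promoter sequence of GRCm38.p6, the assembly also called mm10, from 30 bases before the listed start to 20 bases from the start onward, read 5′ to 3′ on the gene's strand. Capitals mark the run of C and T that begins at the start.
Rps27: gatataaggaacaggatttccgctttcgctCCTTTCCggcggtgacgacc
Rpl28: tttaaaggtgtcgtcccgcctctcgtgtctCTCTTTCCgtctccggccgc
Rps6: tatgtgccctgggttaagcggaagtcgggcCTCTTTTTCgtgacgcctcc
Rps18: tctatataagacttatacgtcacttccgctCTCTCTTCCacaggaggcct
Rplp2: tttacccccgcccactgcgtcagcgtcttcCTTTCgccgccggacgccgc
Rpl15: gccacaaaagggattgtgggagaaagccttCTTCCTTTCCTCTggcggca
They lie at chr3:90213629-90213678 (minus strand), chr7:4792935-4792984 (plus), chr4:86857348-86857397 (minus), chr17:33955646-33955695 (minus), chr7:141447621-141447670 (plus) and chr14:18270967-18271016 (minus). The log2 fold change of RGFP966 over vehicle was -0.34 ± 0.054 (SE) for Rps27, -0.29 ± 0.039 for Rpl28, -0.24 ± 0.036 for Rps6, -0.19 ± 0.039 for Rps18, -0.16 ± 0.038 for Rplp2 and -0.055 ± 0.036 for Rpl15. Rpl15, with the longest run of these 6 (13 bases), was the one of them that did not pass the test.

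RefSeq promoters were matched for 57 of the 77 members. A C at a listed start followed by at least 4 C or T was found in 13 of those 57 (22.8%), against 2.84% of 20177 genes with a promoter in the same table. Because annotated starts often miss the true one by a few bases, the absence of the run at a listed start says only that these letters are not at that base. Of the 13 members with the run, 11 were called lower in RGFP966 cells, with a median log2 fold change of -0.22; of the 44 without it, 20 were called lower, with a median of -0.12. This split was looked at after the values were known and carries no test. In the 300 bases from 250 before to 50 after the start, CCGGAAG, a motif of the ETS family, was found on either strand in 24 of the 57 (42.1%), against 12.05% of all promoters. CTCTTTCC, which overlaps the pyrimidine run in some of these promoters, was found in 10 (17.5%), against 3.57% of all. TATAAA was found in 6 (10.5%), against 14.6% of all. The median log2 fold change was -0.15 in members with CCGGAAG and -0.14 in those without, -0.20 with CTCTTTCC and -0.14 without, and -0.080 with TATAAA and -0.15 without, again with no test.

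Ribosomal protein transcripts were mostly slightly lower in RGFP966 cells. All 77 members passed the filter on low counts, and the log2 fold change was below 0 for 72 of them, against 50.4% of all genes tested. It was below 0 for 1527 of the 2614 genes of at least 100 CPM. By edgeR's quasi-likelihood test with Benjamini-Hochberg adjustment over the 13484 genes tested, 46 members fell (59.7%) and 0 rose at an adjusted p under 0.05. Over all genes tested 11.9% fell and 11.4% rose, and among the 2614 genes of at least 100 CPM, the level range of most members, 22.3% fell. DESeq2 called 43 members lower and 0 higher at an adjusted p under 0.05, against 9.05% of the genes it tested lower. The differences were small. The median log2 fold change of the members was -0.15, a difference of -9.75% in level, beside -0.0019 for all genes tested and -0.025 for genes of at least 100 CPM. A fall of over 10% was fitted for 37 members, of over 20% for 7, and a change of over 1.5-fold for 0. In 52 members all 3 RGFP966 libraries lay below all 3 vehicle libraries, against 18.5% of all genes tested. The same held for 776 of the 2614 genes of at least 100 CPM. Of those 52, 8 were not called, while Rps28 and Rps26 were called with groups that overlapped. Rps28, at 121, 112 and 107 CPM in RGFP966 libraries and 121, 139.9 and 133 CPM in vehicle libraries, had a log2 fold change of -0.21 ± 0.050, a call lost without RGFP966 library 3 and vehicle library 2 (-0.12, adjusted p = 0.142). Rps26, at 699.8, 674 and 645 CPM in RGFP966 libraries and 723, 808 and 696 CPM in vehicle libraries, had one of -0.14 ± 0.044, and its call was lost without RGFP966 library 2 (adjusted p = 0.0748), RGFP966 library 3 (0.156) or vehicle library 2 (0.139).

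The 5 members with a log2 fold change above 0 were Rpl7 (0.050 ± 0.037), Rpl24 (0.37 ± 0.44), Rpl5 (0.027 ± 0.037), Rpl31 (0.011 ± 0.041) and Rps2 (0.0027 ± 0.034), and none of the 5 passed the test.

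**Figure D1:**
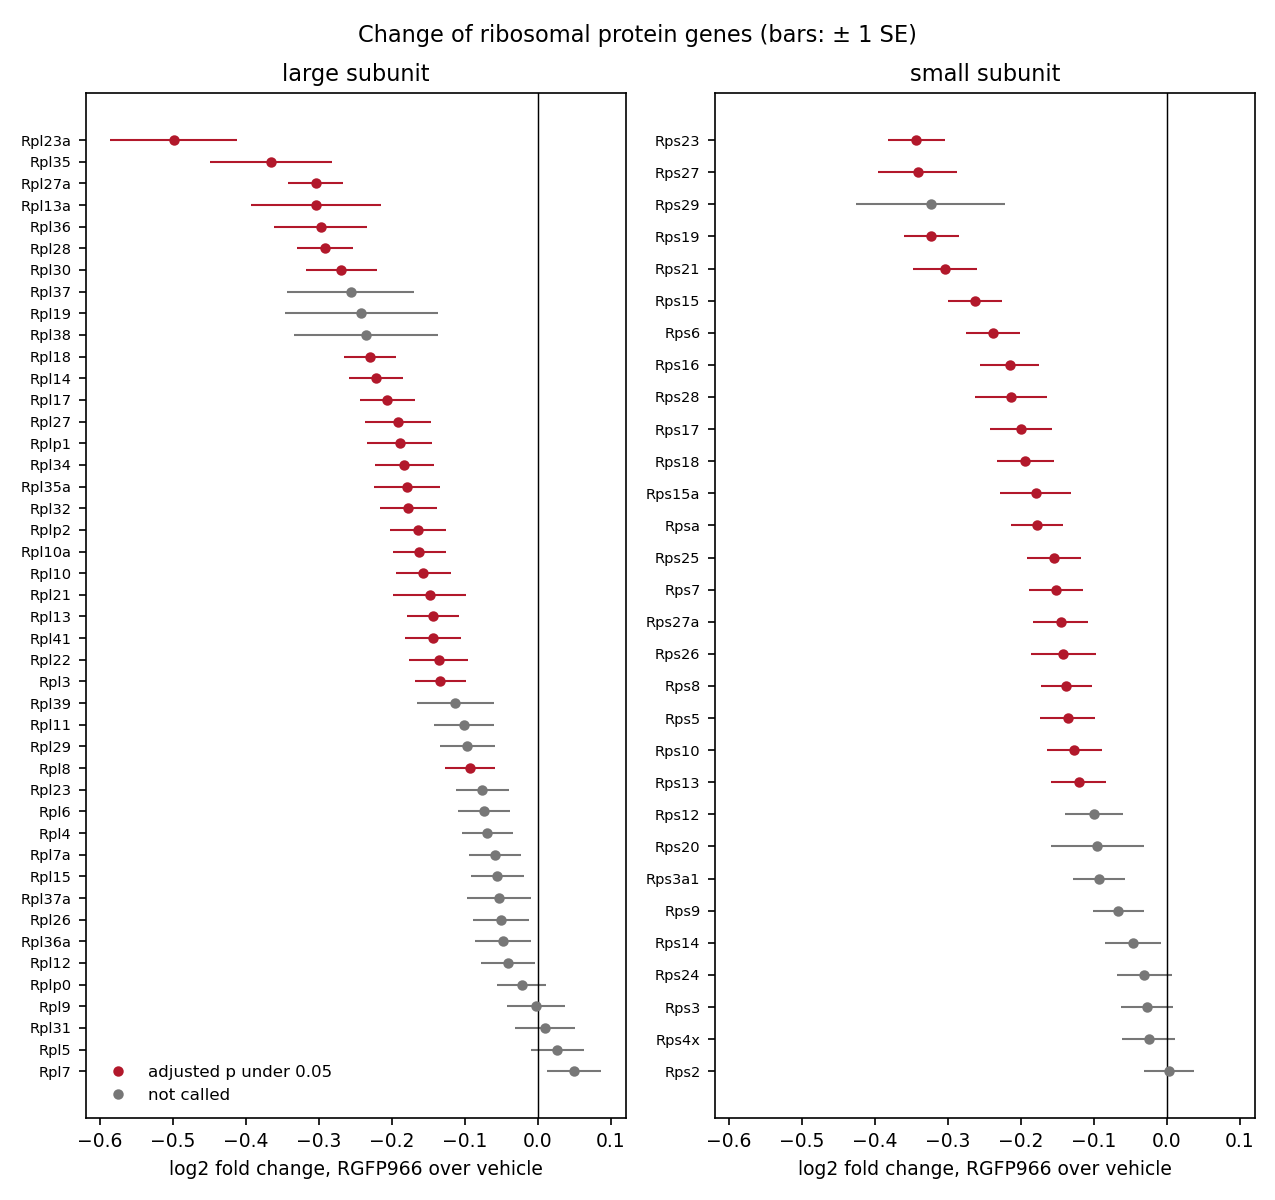
Log2 fold change of RGFP966 over vehicle for 74 members (x axis), one row per gene, large subunit on the left and small subunit on the right; points are the fitted values, bars are ± 1 SE, and red marks an adjusted p under 0.05. Most points lie between 0 and -0.34, with Rpl23a at -0.50 (-0.29 when its pseudogenes are counted with it), and Rpl24, which had 6 to 16 counts per library, and 2 other members are left out.

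Both subunits were lower in RGFP966 cells, and the difference between them was not tested. In the large subunit 25 of 46 members fell (54.3%), with a median log2 fold change of -0.15 (-9.60% in level), and in the small subunit 21 of 31 fell (67.7%), with a median of -0.15 (-9.98% in level). Summed over members, the large subunit took 2.91%, 2.91% and 2.80% of the counts of RGFP966 libraries 1 to 3, against 2.98%, 3.20% and 3.02% in vehicle libraries 1 to 3. The small subunit took 2.22%, 2.21% and 2.13% in RGFP966 libraries, against 2.31%, 2.49% and 2.32% in vehicle libraries. For each subunit, every RGFP966 library was below every vehicle library. The ratio of large-subunit to small-subunit counts was 1.313, 1.315 and 1.312 in RGFP966 libraries, against 1.290, 1.286 and 1.300 in vehicle libraries. The groups did not overlap in this ratio, and RGFP966 libraries differed from vehicle libraries by -7.84% in the small-subunit share and by -6.31% in the large-subunit share. Such sums lean on the most abundant members. With mitochondrial genes and the 10 most abundant genes left out, Rplp0 among them, the differences were closer, at -7.97% and -7.27%. All members together took 5.06% ± 0.111 of counts in RGFP966 and 5.44% ± 0.220 in vehicle libraries (SD, n = 3 each).

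The members moved together from library to library as well as between groups. Vehicle library 2 was the highest of its group for 74 of the 77 members, and RGFP966 library 3 was the lowest of its group for 73. As the median over members of the log2 ratio to the vehicle mean, RGFP966 libraries 1 to 3 stood at -0.13, -0.12 and -0.19, and vehicle libraries 1 to 3 at -0.053, 0.082 and -0.018. Over all genes tested the same medians lay between -0.0042 and 0.0024. The spread among vehicle libraries was thus of a size with the difference between the groups, while the RGFP966 medians all lay below the lowest vehicle one.

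Without RGFP966 library 3 and vehicle library 2, a choice made after seeing these values, 24 members fell (31.2%), against 7.93% of all genes tested. Because these libraries were chosen as the extremes of nearly all these members, leaving them out moves fold changes upward by construction. The 1 member then called higher, Rpl7, is therefore no evidence of a rise. Calls of single genes given above or below as lost in this fit carry the same limit. Of the 46 members that fell with all libraries, 23 were still called, and the median log2 fold change was -0.083. Leaving out RGFP966 library 3 alone gave 37 members lower, against 8.14% of all genes tested, and a median of -0.13. Leaving out vehicle library 2 alone gave 41 members lower, against 10.8%, and a median of -0.11. What sets these libraries apart was not tested.

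**Figure D2:**
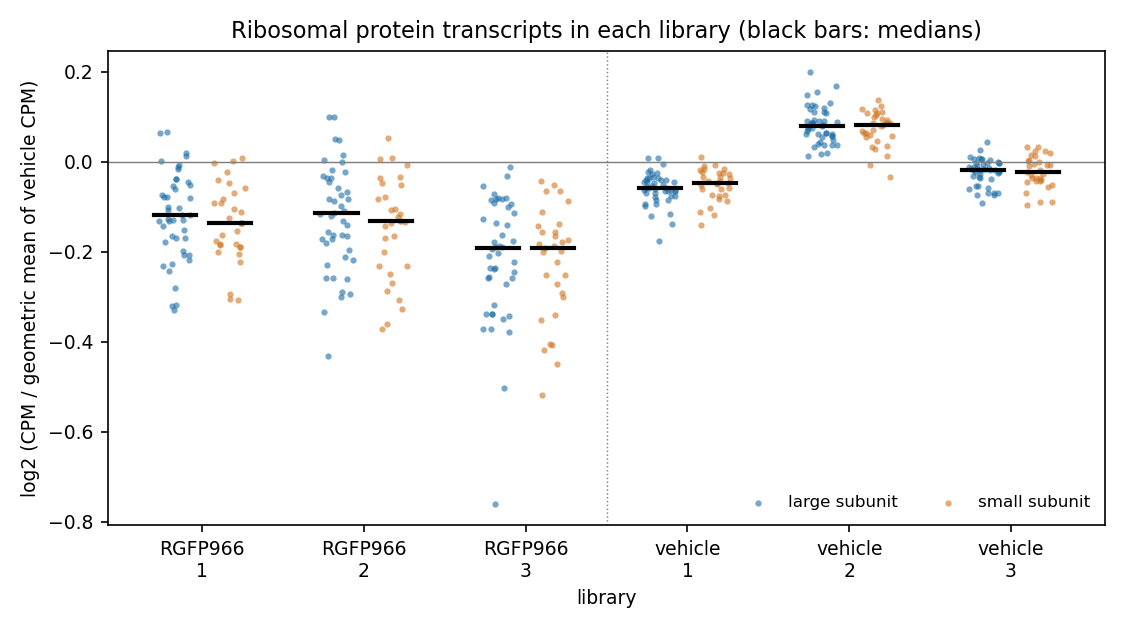
Log2 ratio of each member's CPM to the geometric mean of its 3 vehicle values (y axis), by library (x axis: RGFP966 1 to 3, then vehicle 1 to 3); each point is a gene, coloured by subunit, black bars are medians of the subunit, and Rpl24 is not drawn. Medians of all members are -0.13, -0.12 and -0.19 in RGFP966 libraries and -0.053, 0.082 and -0.018 in vehicle libraries, and both subunits follow the same pattern.

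**Figure D3:**
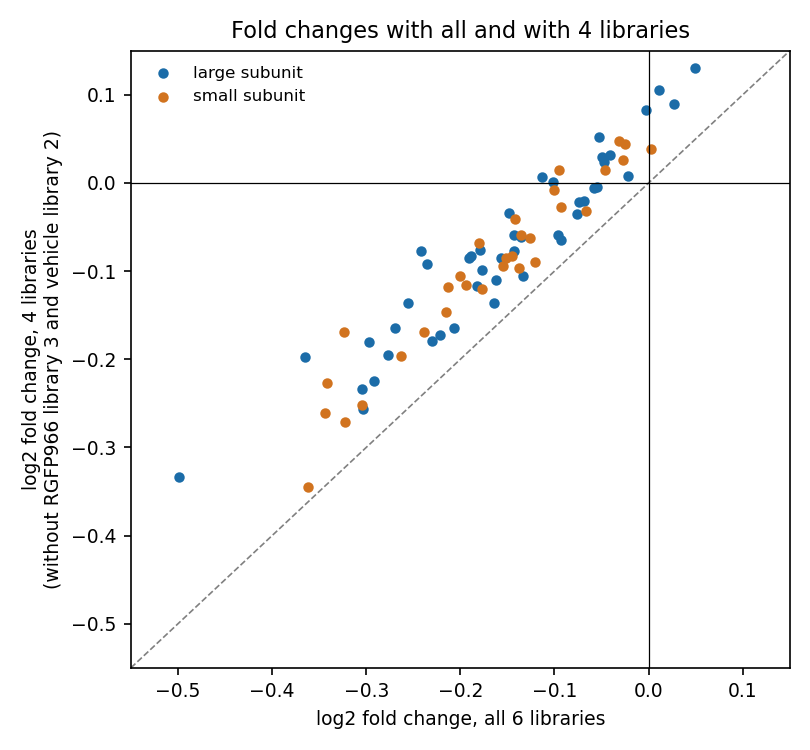
Log2 fold change of RGFP966 over vehicle from all 6 libraries (x axis) against that from the 4 libraries left without RGFP966 library 3 and vehicle library 2 (y axis), one point per member coloured by subunit, Rpl24 not drawn; the dashed line marks equal values. The choice of the libraries left out moves points upward by construction, and all 76 lie above the line, with the median at -0.15 on the x axis and -0.083 on the y axis.

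Among proteins of the head of the small subunit, which holds the tRNAs and the mRNA exit side, 10 of 14 genes fell, with a median log2 fold change of -0.17. Rps19, the protein most often mutated in human Diamond-Blackfan anaemia, lies at chr7:24884371-24889806 on the plus strand. It stood at 323, 323 and 313 CPM in RGFP966 libraries 1 to 3, against 379, 416 and 403 CPM in vehicle libraries 1 to 3. The groups were well apart, and the log2 fold change was -0.32 ± 0.038 (adjusted p = 3.49e-09 by edgeR's quasi-likelihood test). Rps15, which sits near the decoding site, stood at 778, 752 and 706 CPM in RGFP966 libraries, against 877, 922 and 883 CPM in vehicle libraries. Again no RGFP966 library reached a vehicle one, and its log2 fold change was -0.26 ± 0.037 (adjusted p = 1.99e-07). Rps27a, made as a fusion to ubiquitin that is cut apart after translation, stood at 566, 589 and 565 CPM in RGFP966 libraries, against 615, 673 and 614 CPM in vehicle libraries. It fell by 0.15 ± 0.037 on the log2 scale (adjusted p = 2.80e-03), but not without RGFP966 library 3 and vehicle library 2 (log2 fold change -0.083, adjusted p = 0.117). Rps3, at the mRNA entry channel, showed no such separation: 949, 969 and 923 CPM in RGFP966 libraries, against 932, 1004 and 959.7 CPM in vehicle libraries. Its log2 fold change was -0.028 ± 0.036 (adjusted p = 0.636).

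Rps29, a small zinc-binding protein of the head, was named after its values were seen, because a large difference did not pass the test. It stood at 161, 153 and 128 CPM in RGFP966 libraries, against 171, 198 and 183 CPM in vehicle libraries. The groups did not overlap, yet both were spread widely, and the log2 fold change of -0.32 ± 0.10 had an adjusted p of 0.0819 by edgeR's quasi-likelihood test. DESeq2 called it lower (adjusted p = 0.0339), and over all alternatives its adjusted p ranged between 1.53e-10 and 0.233. It was also called lower in each fit that left out RGFP966 library 1 (log2 fold change -0.39), RGFP966 library 3 (-0.22) or vehicle library 1 (-0.37).

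In the body and platform of the small subunit 11 of 17 genes fell, with a median log2 fold change of -0.14. Rps23, whose conserved loop lies at the decoding centre, had the smallest p of all members and lies at chr13:90922958-90924950 on the plus strand. It stood at 706, 691 and 653 CPM in RGFP966 libraries 1 to 3, against 815, 919 and 866 CPM in vehicle libraries 1 to 3. The highest RGFP966 library stayed well under the lowest vehicle one, and the log2 fold change was -0.34 ± 0.039 (adjusted p = 2.89e-09 by edgeR's quasi-likelihood test). As a limit, 37.7% of its exonic sequence is shared with other annotated genes. Rps6, the substrate of the S6 kinases downstream of mTORC1, stood at 1077, 1040.3 and 991 CPM in RGFP966 libraries, against 1193, 1276 and 1197 CPM in vehicle libraries. Its groups were apart too, the log2 fold change being -0.24 ± 0.036 (adjusted p = 1.32e-06). The same limit holds for Rps6, with 43.8% shared, and with its pseudogenes counted its log2 fold change was -0.21.

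Rpsa, also known as a laminin receptor precursor, stood at 1739, 1799 and 1730.2 CPM in RGFP966 libraries, against 1952, 2096 and 1909.6 CPM in vehicle libraries. It fell by 0.18 ± 0.036 on the log2 scale (adjusted p = 1.45e-04 by edgeR's quasi-likelihood test). Not all of the body and platform followed. Rps14, a platform protein whose loss in humans is tied to a myelodysplastic syndrome, stood at 669, 675 and 666 CPM in RGFP966 libraries, against 686, 740.1 and 649 CPM in vehicle libraries. Vehicle library 3 lay below every RGFP966 library, and the log2 fold change was -0.046 ± 0.038 (adjusted p = 0.425). Rps2, at the mRNA entry channel, stood at 2056, 2135 and 1997 CPM in RGFP966 libraries, against 2047, 2078 and 2051 CPM in vehicle libraries. Here the groups lay on top of each other, the log2 fold change being 0.0027 ± 0.034 (adjusted p = 0.967). The sign of this value turned without RGFP966 library 2 (-0.023).

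**Figure D4:**
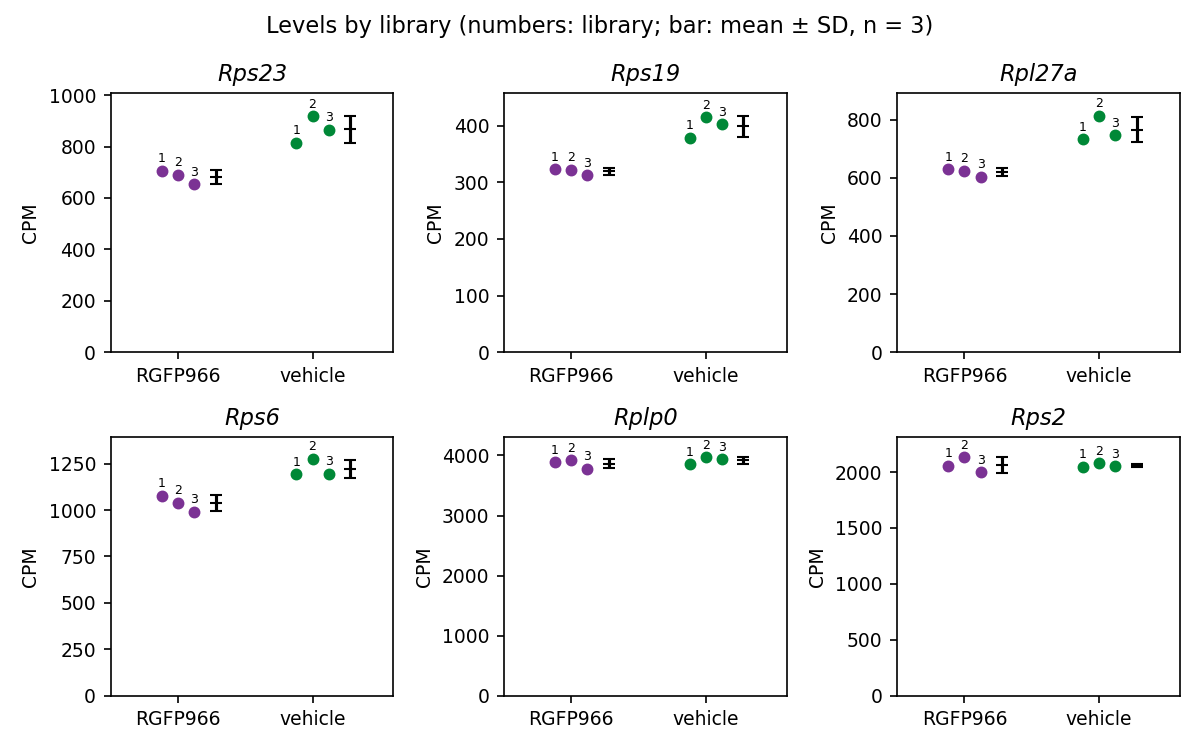
CPM (y axis, from 0) of 6 members in RGFP966 and vehicle libraries (x axis); points are libraries with their numbers, and the bar beside them is the mean ± SD (n = 3). Rps23, Rps19, Rpl27a and Rps6 show RGFP966 libraries wholly below vehicle libraries, while in Rplp0 and Rps2 the groups overlap.

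In the large subunit Rpl27a, Rpl28 and Rpl18 were among the members of smallest p. Rpl27a, a protein found in all domains of life, lies at chr7:109519147-109522367 on the plus strand. It stood at 629.8, 625 and 604 CPM in RGFP966 libraries 1 to 3, against 734, 814 and 747 CPM in vehicle libraries 1 to 3. The gap between the groups was wider than the range within either, and the log2 fold change was -0.30 ± 0.037 (adjusted p = 9.71e-09 by edgeR's quasi-likelihood test). Rpl28, which bacteria lack, stood at 449, 423 and 399 CPM in RGFP966 libraries, against 505, 531 and 518 CPM in vehicle libraries, and fell by 0.29 ± 0.039 on the log2 scale (adjusted p = 6.15e-08). Rpl18 stood at 568, 577 and 547 CPM in RGFP966 libraries, against 642, 682 and 659 CPM in vehicle libraries, and fell by 0.23 ± 0.036 (adjusted p = 2.28e-06). In all 3 genes every RGFP966 library was below every vehicle library. Proteins shared by all domains of life and the others did not stand far apart as groups: 18 of 33 shared ones fell, with a median log2 fold change of -0.13, and 28 of the other 44 fell, with a median of -0.15.

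The P stalk, a flexible arm of the large subunit that recruits elongation factors, was split. Its acidic proteins Rplp1 and Rplp2 fell, and their anchor Rplp0 and the stalk-base protein Rpl12 did not pass the test. Rplp1 stood at 1064, 1049 and 983 CPM in RGFP966 libraries, against 1132, 1281 and 1117 CPM in vehicle libraries, a log2 fold change of -0.19 ± 0.044 (adjusted p = 2.54e-03 by edgeR's quasi-likelihood test). The groups were apart by a narrow margin, 60.0% of its sequence is shared with other annotated genes, and the call was lost in DESeq2 (adjusted p = 0.0653) and without RGFP966 library 3 and vehicle library 2 (adjusted p = 0.0870). Rplp2 stood at 257, 250.1 and 248 CPM in RGFP966 libraries, against 283, 286 and 276 CPM in vehicle libraries, a log2 fold change of -0.16 ± 0.038 (adjusted p = 8.94e-04). Its libraries were tight within each group. Rplp0, the most abundant member per length, stood at 3892, 3918 and 3779 CPM in RGFP966 libraries, against 3859, 3969 and 3938 CPM in vehicle libraries, a log2 fold change of -0.022 ± 0.034 (adjusted p = 0.701). Rpl12 stood at 667, 662 and 629 CPM in RGFP966 libraries, against 641, 708 and 665 CPM in vehicle libraries, a log2 fold change of -0.041 ± 0.037 (adjusted p = 0.482). Both overlapped between the groups, and the difference in response between these stalk genes was not tested.

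Rpl5 and Rpl11 form, with 5S ribosomal RNA, the particle that binds the p53 regulator Mdm2 when ribosome assembly is disturbed, and neither passed the test. Rpl5 stood at 1179, 1254 and 1145 CPM in RGFP966 libraries, against 1121, 1215 and 1174 CPM in vehicle libraries, a log2 fold change of 0.027 ± 0.037 (adjusted p = 0.657 by edgeR's quasi-likelihood test). Rpl11 stood at 525, 509 and 477 CPM in RGFP966 libraries, against 518, 582 and 519.9 CPM in vehicle libraries, a log2 fold change of -0.10 ± 0.042 (adjusted p = 0.0763). The groups overlapped in both genes. Without vehicle library 1 Rpl11 passed the test (log2 fold change -0.13, adjusted p = 0.0425). Rpl11 also passed with a replicate block and with no filter on low counts. Other genes, Fam69a above all, overlap 26.7% of the exonic sequence of Rpl5. Without RGFP966 library 2 the sign of Rpl5 turned (-0.011).

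Of 9 genes for proteins at the peptide exit tunnel or its rim, 4 fell, with a median log2 fold change of -0.14. Rpl4, which lines the tunnel, stood at 2259, 2319.7 and 2229 CPM in RGFP966 libraries, against 2337, 2474 and 2327 CPM in vehicle libraries. The groups did not overlap but the log2 fold change of -0.069 ± 0.035 did not pass the test (adjusted p = 0.153 by edgeR's quasi-likelihood test). When GC content and length entered as offsets, Rpl4 was called lower (-0.080, adjusted p = 0.0260), as it was with a replicate block added (0.0307). Rpl39, deeper in the tunnel, stood at 176, 176 and 159 CPM in RGFP966 libraries, against 168, 199.6 and 183 CPM in vehicle libraries, a log2 fold change of -0.11 ± 0.053 (adjusted p = 0.133). Its groups overlapped, though without vehicle library 1 it passed the test (log2 fold change -0.17, adjusted p = 0.0102), as it did with a replicate block. Rpl22, which mouse αβ T cells need for their development, stood at 278, 283 and 268 CPM in RGFP966 libraries, against 289.6, 323 and 298 CPM in vehicle libraries. Its groups were close but apart, and it fell by 0.14 ± 0.040 on the log2 scale (adjusted p = 8.90e-03). That call was lost without RGFP966 library 3 (log2 fold change -0.11, adjusted p = 0.104) and without vehicle library 2 (-0.090, adjusted p = 0.0921).

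Other large-subunit genes of known roles fell by like amounts. Rpl10, which joins late in subunit maturation and is mutated in some human T-cell leukaemias, stood at 644, 658 and 625 CPM in RGFP966 libraries, against 681, 761 and 705 CPM in vehicle libraries. All RGFP966 libraries were lower, and the log2 fold change was -0.16 ± 0.038 (adjusted p = 1.39e-03 by edgeR's quasi-likelihood test), a call lost without RGFP966 library 3 and vehicle library 2 (-0.085, adjusted p = 0.103). Rpl41, a very short protein at a bridge between the subunits, stood at 687, 671 and 615 CPM in RGFP966 libraries, against 704, 757 and 717 CPM in vehicle libraries. Its groups were apart by a small gap, the log2 fold change being -0.14 ± 0.038 (adjusted p = 4.35e-03), and the call was lost without RGFP966 library 3 (-0.090, adjusted p = 0.136) and when GC content and length entered as offsets (-0.062, adjusted p = 0.137). The least stable call was that of Rpl8, chosen for this after its values were seen. It stood at 1191, 1196 and 1152 CPM in RGFP966 libraries, against 1265, 1269 and 1242 CPM in vehicle libraries, a log2 fold change of -0.093 ± 0.034 (adjusted p = 0.0400). Its groups did not overlap, but it was called in 4 of 21 alternatives and in none of the 6 that left out 1 library, where its adjusted p ranged between 0.0511 and 0.236.

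Across the 77 members 22 were called lower in every one of the 21 alternatives. These included all 4 large-subunit and all 4 small-subunit genes of smallest p.

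Levels were compared between members as CPM per kilobase of the annotated transcript. The highest were Rplp0, at 2845 in RGFP966 and 2888 in vehicle libraries, Rplp1, at 2069 in RGFP966 and 2358 in vehicle libraries, and Rps2, at 2067 in RGFP966 and 2063 in vehicle libraries. The lowest were Rpl35, at 25.2 in RGFP966 and 32.4 in vehicle libraries, Rpl13a, at 17.0 in RGFP966 and 21.0 in vehicle libraries, and Rpl24, at 1.26 in RGFP966 and 0.962 in vehicle libraries. Exons of other genes overlap 66.2% of the exonic sequence of Rpl35, 35.4% of that of Rpl13a and 47.0% of that of Rpl24. The largest part is from Wdr38, Gm45713 and Gm28037 in turn, and how the authors counted reads in such overlaps is not given. Rpl24 had 9, 16 and 10 counts in RGFP966 libraries 1 to 3, against 6, 12 and 13 counts in vehicle libraries 1 to 3, too few to show a difference of the size seen in other members. Rpl35 fell by 0.37 ± 0.083 on the log2 scale (adjusted p = 7.76e-04 by edgeR's quasi-likelihood test), and Rpl13a fell by 0.30 ± 0.089 (adjusted p = 9.19e-03). Neither was called without RGFP966 library 3 and vehicle library 2 (adjusted p = 0.156 and 0.110). Rpl23a, at 24.6, 22.8 and 18.1 CPM in RGFP966 libraries and 29.4, 32.2 and 30.6 CPM in vehicle libraries, had the lowest log2 fold change of all members, -0.50 ± 0.087 (adjusted p = 1.73e-05). Other genes, Tlcd1 above all, overlap 62.3% of its exonic sequence. With its pseudogenes counted its log2 fold change was -0.29, no longer the lowest. It was named after its values were seen.

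Ribosomal protein genes have many processed pseudogenes, and a median of 24.4% of a member's exonic 50-base words also occurred in other annotated genes. Over 50% was shared in 7 members, and 37 were overlapped by another gene's exons. Among the 13 members with under 10% of either, 7 fell, with a median log2 fold change of -0.11. The 288 annotated pseudogenes took 0.310%, 0.325% and 0.313% of counts in RGFP966 libraries, against 0.331%, 0.358% and 0.310% in vehicle libraries, and their groups overlapped. Of the 84 pseudogenes tested 10 fell, a share of 11.9% that is near that of all genes tested, and 1 rose (1.19%, against 11.4% of all genes tested). The median SE was 0.15 for these pseudogenes and 0.038 for the members, so a fall of the size seen in members was harder to call. The log2 fold change was below 0 for 54 of the 84 pseudogenes and above 0 for 30, with a median of -0.053. Their share of falls is thus no evidence that they were unaffected. Adding each member's pseudogenes to its own counts left 45 members lower, against 11.3% of all genes tested, and a median of -0.14. Across the 77 members the log2 fold change had a Spearman correlation of 0.30 with level per kilobase, 0.34 with transcript length, -0.29 with GC content and -0.13 with shared sequence. These correlations are descriptions over genes of the same 6 libraries, and genes are not independent replicates. Length was that of an annotated transcript, with a median of 830 bases over the members but 5179 for Rps15a and 3706 for Rps20. Levels per kilobase depend on it.

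Outside the symbol rule, Fau fell and Rack1 did not pass the test. Fau, made as a fusion of a ubiquitin-like protein to a small-subunit protein, stood at 266, 276 and 263 CPM in RGFP966 libraries, against 311, 346 and 321 CPM in vehicle libraries. Its groups were well apart and the log2 fold change was -0.28 ± 0.040 (adjusted p = 1.83e-07 by edgeR's quasi-likelihood test). Rack1, a signalling scaffold on the small-subunit head, stood at 1482, 1509 and 1476 CPM in RGFP966 libraries, against 1465, 1539 and 1459 CPM in vehicle libraries, with groups that overlapped and a log2 fold change of 0.0011 ± 0.034 (adjusted p = 0.988).

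The paralogs, some of which can stand in for a core protein, did not move as one: of 5 tested, 1 rose and 1 fell. Rpl7l1, a nucleolar relative of Rpl7, stood at 169.6, 181 and 160.4 CPM in RGFP966 libraries, against 136, 141 and 138 CPM in vehicle libraries. All RGFP966 libraries were higher, the log2 fold change being 0.30 ± 0.043 (adjusted p = 4.16e-07 by edgeR's quasi-likelihood test). Rpl22l1, the paralog of Rpl22, averaged 7.34 ± 0.373 CPM in RGFP966 and 9.44 ± 0.640 CPM in vehicle libraries (SD, n = 3 each). Its log2 fold change was -0.36 ± 0.14 (adjusted p = 0.0436), a call that was lost in 13 of 21 alternatives, 5 of which left out a single library. Log2 fold changes of Rpl36al (-0.51 ± 0.27), Rps27l (-0.17 ± 0.091) and Rps27rt (-0.20 ± 0.091) did not pass the test (adjusted p = 0.179, 0.244 and 0.160). Of these, Rpl36al was called without RGFP966 library 2 (log2 fold change -0.84), Rps27l without vehicle library 1 (-0.23) and Rps27rt without vehicle library 3 (-0.27). With all libraries kept, Rps27l and Rps27rt were each called lower with no filter on low counts, with a replicate block, and with GC and length offsets. Rps27rt was also called by limma and with the block and offsets together. Of Rps27rt sequence, 91.1% is shared with other genes, Rps27 above all.

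Lists of genes that work with the ribosome are given beside the 11.9% of all genes tested that fell and the 11.4% that rose, and their differences from the ribosomal proteins were not tested. Among genes of at least 100 CPM, 22.3% fell and 13.5% rose. The median level was 413 CPM for the other TOP mRNAs and 444 CPM for the elongation and termination factors given below. Of 22 other mRNAs of the TOP class 6 fell (27.3%) and 3 rose (13.6%), with a median log2 fold change of -0.056. Eef1a1, which brings tRNAs to the ribosome and is itself a TOP mRNA, fell by 18.8%. It stood at 8792, 8908 and 8676 CPM in RGFP966 libraries, against 10708, 10964 and 10813 CPM in vehicle libraries, far apart, and its log2 fold change was -0.30 ± 0.033 (adjusted p = 7.17e-10 by edgeR's quasi-likelihood test). Fau, which this list also holds, was the other fall of smallest p. Pabpc1, which binds poly(A) tails, rose by 0.15 ± 0.034 on the log2 scale (adjusted p = 7.61e-04), averaging 3636 ± 113 CPM in RGFP966 and 3275 ± 73.1 CPM in vehicle libraries. Snhg1, a host transcript of small nucleolar RNAs, rose by 0.17 ± 0.053 (adjusted p = 0.0156), a call lost without RGFP966 library 2 (adjusted p = 0.114), vehicle library 1 (0.0728) or vehicle library 3 (0.106).

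Of 13 elongation and termination factors tested 4 fell (30.8%) and 1 rose (7.69%), with a median log2 fold change of -0.049. Eef1a1 is on this list as well as on that of the other TOP mRNAs, so the lists are not separate. Eif5a, which helps the ribosome past proline-rich stretches, fell to 885 ± 28.4 CPM in RGFP966, against 1090.0 ± 25.7 CPM in vehicle libraries (SD, n = 3 each; log2 fold change -0.30 ± 0.035, adjusted p = 3.22e-09 by edgeR's quasi-likelihood test). Hbs1l, a ribosome rescue factor, rose by 0.15 ± 0.044 (adjusted p = 9.71e-03). Of 11 dedicated chaperones and escorts of ribosomal proteins 5 fell (45.5%) and 1 rose (9.09%), with a median of -0.11. Pdcd2l, a relative of the Rps2 chaperone Pdcd2, fell by 0.28 ± 0.081 (adjusted p = 7.73e-03; 0.0784 without RGFP966 library 3 and vehicle library 2), and Aamp, whose yeast homologue escorts Rpl10, fell by 0.19 ± 0.049 (adjusted p = 3.17e-03). Nap1l1, a histone chaperone, rose by 0.11 ± 0.035 (adjusted p = 0.0168), a call lost without RGFP966 library 1 (0.104), RGFP966 library 2 (0.0993) or vehicle library 1 (0.0632).

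Of 19 tested genes of mTORC1, LARP1 and the S6 kinases 5 fell (26.3%) and 3 rose (15.8%), with a median log2 fold change of -0.074, and the share that rose was near that of all genes tested. Akt1s1, an inhibitory subunit of mTORC1, fell to 25.1 ± 2.02 CPM in RGFP966, against 34.6 ± 2.06 CPM in vehicle libraries (SD, n = 3 each; log2 fold change -0.46 ± 0.077, adjusted p = 7.96e-06 by edgeR's quasi-likelihood test). The kinase genes Rps6ka1 and Rps6ka5 rose by 0.44 ± 0.082 (adjusted p = 4.38e-05) and 0.40 ± 0.086 (adjusted p = 4.50e-04), while Rps6ka4 fell by 0.35 ± 0.062 (adjusted p = 1.97e-05). These Rps6ka genes are not components of mTORC1, and their values are not read here as a result about it or its S6 kinases. The mitochondrial ribosome, a separate particle with its own proteins, had 14 of 77 tested genes lower (18.2%) and 3 higher (3.90%; 78 are in the table), with a median of -0.069. Mrpl12 fell by 0.41 ± 0.057 (adjusted p = 1.69e-07) and Mrpl54 fell by 0.61 ± 0.089 (adjusted p = 4.76e-07), while Mrpl1 rose by 0.24 ± 0.062 (adjusted p = 2.43e-03). Mrpl49 rose by 0.18 ± 0.052 (adjusted p = 9.25e-03), a call lost without RGFP966 library 1 (adjusted p = 0.102) or vehicle library 1 (0.0507).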

How the data were processed

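Gene expression was measured by RNA sequencing of EL4 cells, with 3 RGFP966 and 3 vehicle libraries. The deposited table holds raw read counts for 51912 Ensembl genes, of which 51633 matched a symbol. Per the submitters' processing notes, CASAVA, Bowtie2 2.2.3, HISAT2 2.1.0, TopHat2, HTSeq 0.6.0 and the build mm10 were used, with no role or order given. Neither annotation release nor strand setting is given in the sources used here, so reads of overlapping or antisense genes cannot be told apart.

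Counts were fitted in edgeR 4.0.16 (R 4.3.3) with filterByExpr, trimmed mean of M values (TMM) scaling and the robust quasi-likelihood F test, group being the only term. Fold changes are RGFP966 over vehicle, p-values were adjusted over all genes tested by Benjamini and Hochberg, and calls were made at 0.05. SE is the standard error, SD the standard deviation, and CPM counts per 1000000 of the scaled total. The fit was tried on simulated data in which genes varied independently. Shifts shared by many genes of a library, as seen in these members, were therefore not covered. Positions, exon overlaps and words of 50 bases shared between genes came from GENCODE M21 (GRCm38), and promoters from RefSeq.

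The members and gene lists were chosen with earlier results of these data known. Named were the 4 calls of smallest p per subunit and direction, 17 members of known role, the 3 highest and 3 lowest per kilobase, related genes outside the rule, and 2 calls per related list and direction, except a few genes whose results are left out here. Same-numbered libraries did not deviate together (correlations -0.018, 0.013 and 0.0084), so the numbers were not taken as pairs. Within groups, libraries differed by more than counting noise (chi-square per degree of freedom 2.15 to 3.33). Alternatives used DESeq2 1.42.0, limma 3.58.1 and other scalings, filters and library sets.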

Additional observations from a re-analysis of the deposited data

How the results depend on the processing

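The 14 alternatives that kept all libraries gave 42 to 53 members lower and 0 higher (large subunit 23 to 29, small subunit 19 to 24), and median log2 fold changes of the members between -0.15 and -0.12 (large subunit -0.15 to -0.11, small subunit -0.15 to -0.13). Over all genes these 14 gave 1126 to 1913 lower and 1139 to 1838 higher. The share lower ranged between 6.02% (no filter on low counts, 53 members lower) and 14.2% (GC and length offsets, 44 members lower). Leaving out each library in turn gave 37 to 54 members lower (large 20 to 30, small 17 to 24) and 0 higher, with medians of -0.17 to -0.11 (large -0.17 to -0.11, small -0.18 to -0.12). Over all genes those fits gave 1116 to 1484 lower and 1238 to 1385 higher. With a replicate block, though the numbers were not shown to pair libraries, 52 members were lower, against 13.1% of all genes tested. With GC and length offsets added to the block, 45 members were lower, against 14.2%. Upper-quartile factors gave 1838 genes higher and 1270 lower (59.1% of calls higher), against 1543 and 1602 with TMM (49.1%), and 42 members lower. Counting pseudogenes with the members raised their share to 5.38% in RGFP966 and 5.78% in vehicle libraries.

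Without RGFP966 library 3 and vehicle library 2, chosen after seeing the data, 24 members were lower (12 in each subunit), against 7.93% of all genes tested. There 1 member (Rpl7) was higher, and medians were -0.083, -0.077 (large) and -0.089 (small), from fewer libraries. In that fit, whose libraries were chosen as extremes of these members, the log2 fold change turned positive for 13 members, among them Rpl11 (0.00057), Rpl12 (0.032), Rpl39 (0.0063), Rplp0 (0.0083), Rps14 (0.015) and Rps3 (0.026). Other signs turned at values near 0, and their cause was not tested: Rack1 without a filter (-0.0012), without RGFP966 library 2 (-0.0092), vehicle library 1 (-0.0069) or vehicle library 3 (-0.0077; highest without 1 library 0.025), and Rpl31 without RGFP966 library 1 (-0.018), RGFP966 library 2 (-0.0093) or vehicle library 1 (-0.027; highest 0.064). Without RGFP966 library 2 Rpl5 (-0.011; highest 0.063) and Rps2 (-0.023) also turned. Rplp0 turned with upper-quartile factors (0.0014) and without RGFP966 library 3 (0.00060; lowest -0.033), Rps14 with GC and length offsets (0.018), the same with a replicate block (0.019) and without vehicle library 2 (0.0041; lowest -0.085), and Rps3 without vehicle library 2 (0.00063; lowest -0.049).

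With 3 libraries per group from 1 cell line, the smallest difference called in a member was -6.27% (Rpl8), and shared reads limit the genes with near-identical copies.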
